A study of Macaca mulatta with 20 samples.

Results

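The genes described here carry out the breakdown of the branched-chain amino acids leucine, isoleucine and valine inside mitochondria. They are 10 of the 18288 genes in the tables, chosen by name for their place in that pathway, and all 10 were measured and tested in every comparison. They are the subunit genes BCKDHA, BCKDHB, DBT and DLD, the regulators BCKDK and PPM1K, and the downstream enzymes IVD, MCCC1, HIBCH and ALDH6A1. RNA was sequenced from the livers of 10 rhesus monkeys (Macaca mulatta), sampled by biopsy. The groups were caloric restriction (CR) at year 2, CR at year 0, Control diet at year 2 and Control diet at year 0, with 5 libraries each. CR animals were 004, 007, 008, 011 and 012, and Control animals were 001, 005, 006, 009 and 010. Each animal gave a biopsy at enrolment (year 0) and another after 2 years on its diet (year 2), so that the biopsies of an animal form a pair. The labels give no sex, age or strain for either diet, and no degree of restriction.

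Breakdown starts when a transaminase takes the amino group off, which leaves a branched-chain keto acid. The branched-chain keto acid dehydrogenase complex then removes a carbon dioxide in the committed and irreversible step. BCKDK, its kinase, phosphorylates the complex and shuts it down, and PPM1K, its phosphatase, removes the phosphate and turns it on again. After that step the paths part: leucine goes on through IVD and MCCC1 towards ketone bodies, and valine through HIBCH and ALDH6A1 towards propionyl-CoA. Liver is known for a high activity of the complex and a low activity of the transaminases, so that much of the keto acid it burns comes from muscle.

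No fitted change of any of the 10 genes passed edgeR's quasi-likelihood test with Benjamini-Hochberg adjustment over all genes tested, in any of the 5 comparisons. Over the 2 years in CR animals, 4 of the fitted levels were higher and 6 lower at year 2, with a median log2 change of -0.04. In Control animals all 10 were lower, with a median of -0.55. Leaving out Control animals 001 and 009, whose year 2 libraries stood apart and are described first, gave a Control median of -0.22.

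The shallowest library, Control 009 at year 2, held 15421789 counts, and the remaining 19 held 20883559 to 31440640. The albumin share of counts, a sign of hepatocyte RNA, was 5.42% in that library, 8.57% in Control 001 at year 2 and 10.6% to 15.8% elsewhere. The summed level of 10 hepatocyte markers was 74462 TPM (a level per transcript length, scaled to the same total in each library) in Control 009 and 127250 TPM in Control 001 at year 2. In the other libraries that sum ran from 135770 to 184880 TPM, so that hepatocyte RNA was abundant in all 20. The fitted changes of the 10 genes in Control, and the lists whose value moved most, are given with and without both animals. In a biopsy of mixed cells, fewer cells of a type and less RNA per cell cannot be told apart.

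The level of the genes in liver was compared on the TPM scale, by the median over the 20 libraries. ALDH6A1 (229.9 TPM) and IVD (212 TPM) led, followed by DLD (60.5), BCKDHA (54.6), HIBCH (46.5), BCKDHB (42.6), MCCC1 (41.4), PPM1K (26.2), BCKDK (18.4) and DBT (13.3 TPM). Of the neighbours in this order, IVD stood above DLD and BCKDK above DBT in 20 of 20 libraries. ALDH6A1 exceeded IVD in 11 libraries, HIBCH exceeded BCKDHB in 11, and BCKDHB exceeded MCCC1 in 9, so that these neighbours changed places from library to library. DLD exceeded BCKDHA in 15 libraries, BCKDHA exceeded HIBCH in 14, MCCC1 exceeded PPM1K in 18 and PPM1K exceeded BCKDK in 14. The core subunit DBT was thus the lowest of the complex on TPM, with BCKDHB at 2.39 to 4.03 times its TPM. This order depends on the division by transcript length. On counts scaled to the library but not to length (CPM, below), DBT averaged 68.0, 69.2, 47.6 and 85.2 in the 4 groups as listed above. BCKDHB averaged 34.5, 34.0, 24.8 and 42.3 on that scale.

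**Figure D1:**
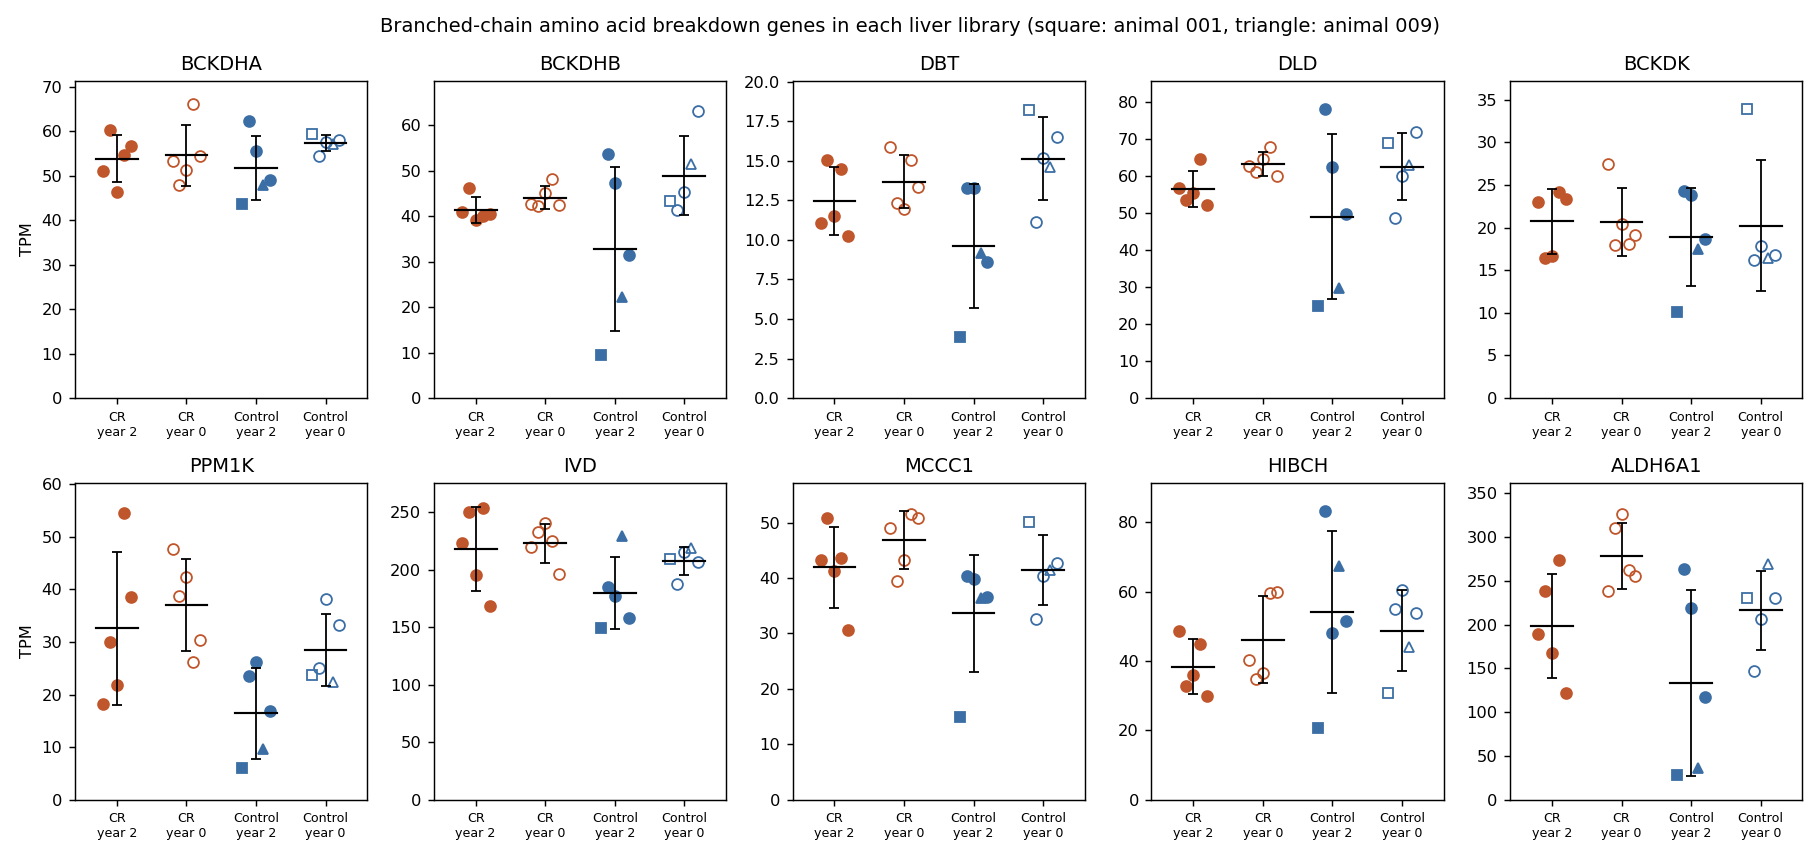
TPM of each of the 10 genes (vertical axes, starting at 0) in every library of the 4 groups, with the group mean as a line and 1 SD as bars (n = 5 each). CR groups are compact for BCKDHB and DLD, while the filled square and triangle, Control 001 and 009 at year 2, lie at the bottom of their group for BCKDHB, DLD, PPM1K and ALDH6A1.

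BCKDHA and BCKDHB encode the α and β chains of the decarboxylase, the component that binds the keto acid. BCKDHA stood at 51.1, 60.25, 46.3, 54.7 and 56.8 TPM in CR at year 2 (animals 004, 007, 008, 011 and 012), against 53.4, 47.95, 51.3, 66.1 and 54.3 TPM in CR at year 0. In Control animals (001, 005, 006, 009 and 010) it stood at 43.7, 62.3, 55.6, 48.0 and 49.0 TPM at year 2, against 59.4, 54.5, 57.5, 57.2 and 58.0 TPM at year 0. The year 2 and year 0 values overlapped in both diets. CPM (counts scaled to the library total, with TMM factors) is the scale nearest to the fit. On CPM, Control 001 at year 2 was the highest of the 20 libraries for BCKDHA (66.6 CPM) and Control 009 at year 2 the lowest (27.7 CPM). The TMM factor multiplies the library total, so a factor above 1 lowers CPM. It was 1.662 in Control 009 and 0.763 in Control 001 at year 2, and 0.900 to 1.113 elsewhere. Places of both libraries on CPM, and the fitted Control changes, depend on these factors. The fitted log2 change of BCKDHA was 0.09 ± 0.19 in CR and -0.29 ± 0.19 in Control (SE, n = 5 animals each). It was -0.23 in Control without animals 001 and 009. Here and below, the SE of a change comes from a spread that both diets share, animals 001 and 009 included unless left out.

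BCKDHB was tight in CR and wide in Control. It stood at 41.0, 46.2, 39.1, 40.03 and 40.5 TPM in CR at year 2, against 42.7, 42.2, 45.05, 48.1 and 42.4 TPM in CR at year 0. In Control animals it stood at 9.38, 53.6, 47.3, 22.3 and 31.5 TPM at year 2, against 43.4, 41.4, 45.2, 51.6 and 63.1 TPM at year 0. Animals 001, 009 and 010 held the low values of Control at year 2, and 005 and 006 were above their own year 0 value on this scale. The fitted log2 change was 0.02 ± 0.25 in CR and -0.93 ± 0.26 in Control, where the unadjusted p was 0.00351 and the edgeR adjusted p 0.297. Without animals 001 and 009 the Control value was -0.38 ± 0.19.

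The chains did not keep a fixed RNA ratio in every library. BCKDHA TPM over BCKDHB TPM averaged 1.30 ± 0.09 in CR at year 2 and 1.24 ± 0.10 in CR at year 0 (SD, n = 5). In Control it averaged 2.14 ± 1.46 at year 2 and 1.197 ± 0.183 at year 0. The highest ratios of Control at year 2 were those of animal 001, at 4.66, and animal 009, at 2.15. The other 3 Control animals (005, 006 and 010) had 1.16, 1.18 and 1.56 at year 2, against 1.32, 1.27 and 0.92 at year 0.

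DBT is the transacylase that forms the core of the complex and hands the acyl group to coenzyme A. It stood at 11.1, 15.03, 11.5, 14.5 and 10.2 TPM in CR at year 2, against 15.85, 12.3, 11.9, 15.03 and 13.3 TPM in CR at year 0. In Control animals it stood at 3.86, 13.3, 13.3, 9.16 and 8.59 TPM at year 2, against 18.2, 11.15, 15.2, 14.6 and 16.5 TPM at year 0. On the TPM scale only animal 005 was above its own year 0 value among Control animals, and on CPM none was. The fitted log2 change was -0.03 ± 0.22 in CR and -0.90 ± 0.22 in Control (unadjusted p = 0.00129, edgeR adjusted p = 0.297), which ranked 53 of 13730 genes by p. DESeq2 called this change (log2 change of -0.89, adjusted p = 0.0208), among 210 genes (1.53%) that it called in Control. Without animals 001 and 009 the edgeR value was -0.49 ± 0.19 (adjusted p = 0.583), and DESeq2 was not run without them.

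DLD is the dehydrogenase that recycles the lipoyl arm, and the pyruvate, 2-oxoglutarate and glycine complexes use it too. It stood at 56.8, 53.7, 55.6, 64.65 and 52.4 TPM in CR at year 2, against 62.9, 61.1, 64.7, 68.0 and 60.0 TPM in CR at year 0. For Control animals the values were 24.9, 78.3, 62.6, 29.9 and 49.9 TPM at year 2, against 69.0, 48.8, 60.0, 63.1 and 72.1 TPM at year 0. It was lower at year 2 in 5 of 5 CR animals on the TPM scale, where the median log2 change of all genes was -0.08, and in 4 of 5 on CPM. The share of all genes lower in 5 of 5 CR animals was 5.67% on CPM and was not taken on TPM. The log2 CPM change of DLD in CR animals ran from -0.13 to 0.07, while its SE draws on both diets. For DLD the fitted log2 change was -0.05 ± 0.24 in CR and -0.60 ± 0.25 in Control (edgeR adjusted p = 0.323), and -0.13 in Control without animals 001 and 009.

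The kinase and the phosphatase act against each other on the complex. BCKDK, the kinase, stood at 23.0, 16.4, 16.7, 24.1 and 23.4 TPM in CR at year 2, against 27.5, 18.0, 20.4, 18.1 and 19.2 TPM in CR at year 0. Control animals had 10.1, 24.3, 23.8, 17.5 and 18.65 TPM at year 2, against 33.9, 16.2, 17.9, 16.4 and 16.8 TPM at year 0. On the TPM scale animal 001 held both the highest and the lowest BCKDK value of Control, whereas on CPM the lowest was animal 009 at year 2 (11.8 CPM), with 18.0 CPM in animal 001. For BCKDK the fitted log2 change was 0.11 ± 0.20 in CR and -0.24 ± 0.20 in Control, and the Control value turned to 0.19 without animals 001 and 009.

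PPM1K, the phosphatase, varied widely among CR animals and was lower at year 2 in each Control animal. It stood at 18.3, 30.0, 21.8, 54.45 and 38.5 TPM in CR at year 2, against 47.6, 38.65, 42.4, 26.2 and 30.35 TPM in CR at year 0. For Control animals the values were 5.99, 23.5, 26.2, 9.70 and 16.9 TPM at year 2, against 23.7, 25.1, 38.1, 22.4 and 33.3 TPM at year 0. CR animals 004, 007 and 008 were below their year 0 value and 011 and 012 above it, whereas all 5 Control animals were below, also on the CPM scale. For PPM1K the fitted log2 change was -0.16 ± 0.31 in CR and -1.10 ± 0.31 in Control (unadjusted p = 0.00366, edgeR adjusted p = 0.297). DESeq2 called the Control change at -1.09 (adjusted p = 0.0411). With both of those animals left out (001 and 009) the edgeR value was -0.74 ± 0.37 (adjusted p = 0.664), the lowest value of the 10 genes in the remaining 3 Control animals.

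The RNA ratio of phosphatase to kinase put both regulators on 1 scale. PPM1K TPM over BCKDK TPM averaged 1.57 ± 0.55 in CR at year 2 and 1.80 ± 0.31 in CR at year 0 (SD, n = 5). In Control it averaged 0.82 ± 0.24 at year 2 and 1.55 ± 0.57 at year 0. Control animals 005, 006 and 010 had 0.97, 1.10 and 0.91 at year 2, against 1.55, 2.13 and 1.98 at year 0. The ratio was lower at year 2 in 3 of 5 CR animals and in 5 of 5 Control animals. It was below 1 in 1 CR animal and 4 Control animals at year 2, and in 0 CR animals and 1 Control animal at year 0. The ratio is of RNA and says nothing of the phosphorylation of the complex, which was not measured.

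**Figure D2:**
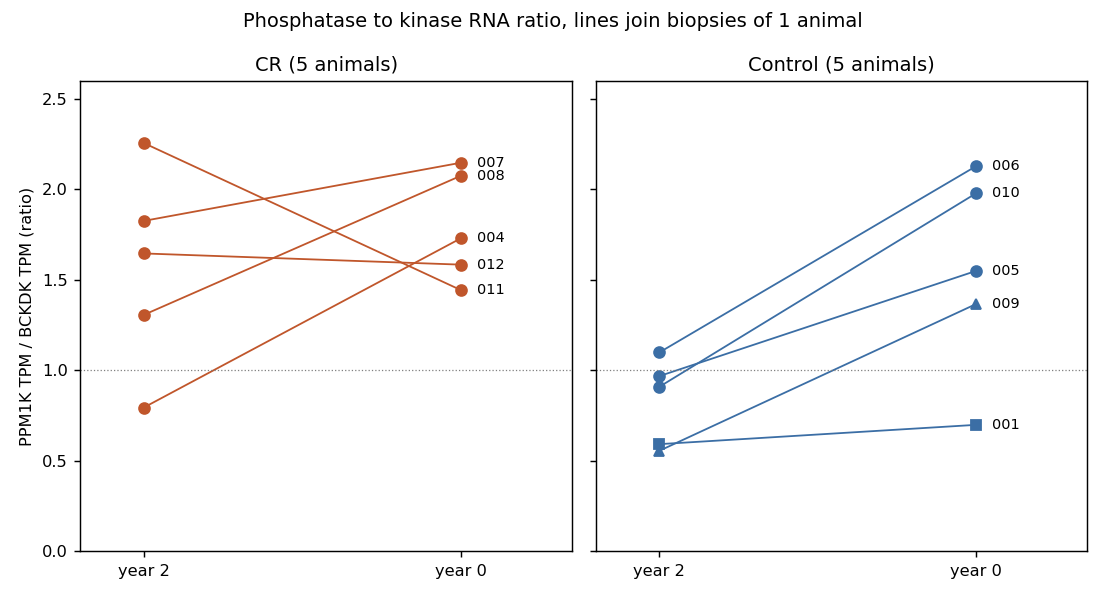
PPM1K TPM divided by BCKDK TPM (vertical axis, a ratio without unit) at year 2 and year 0 in each animal, with a line joining the biopsies of an animal and a dotted line at 1. CR animals range from 0.79 to 2.26 at year 2, while the lines of all 5 Control animals are lower at year 2, where they reach 0.55 to 1.10.

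IVD, which oxidizes the leucine product isovaleryl-CoA, was among the most abundant of the 10. It stood at 223, 250.2, 195, 254 and 169 TPM in CR at year 2, against 219.8, 232, 241, 225 and 197 TPM in CR at year 0. Control animals had 149, 185, 177, 229.5 and 158 TPM at year 2, against 209, 188, 215, 219 and 207 TPM at year 0. On the TPM scale the Control libraries at year 2 were below all 5 of year 0 in 4 animals, and 009 was above them. On CPM these places turned round: 009 at year 2 was the lowest of all 20 libraries for IVD (375 CPM). Animal 001 at year 2 (646 CPM) was above the 5 Control libraries of year 0 (541 to 640.5 CPM). The TMM factors, 1.662 for 009 and 0.763 for 001 at year 2, move CPM in these directions. For IVD the fitted log2 change was 0.07 ± 0.20 in CR and -0.37 ± 0.20 in Control (edgeR adjusted p = 0.380), and -0.43 in Control without animals 001 and 009.

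The transcript table lists 2 IVD transcripts, and they were used unequally in the libraries that stood apart. The transcript numbered 01 took 70.9% of the IVD counts in Control 009 and 7.02% in Control 001 at year 2. Elsewhere it took 0.28% in CR 008 at year 2, 0.47% in Control 010 at year 0 and 0 in the other 16 libraries. It did not reach 5% of the gene's counts on average over the libraries, so no test of transcript usage was made. HIBCH also has 2 transcripts listed, and the transcript numbered 02 is listed at 0 in all 20 libraries. The other 8 genes have 1 transcript each.

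MCCC1 is the biotin-carrying subunit of methylcrotonyl-CoA carboxylase, the step after IVD on the leucine path. It stood at 43.3, 50.9, 41.3, 43.5 and 30.7 TPM in CR at year 2, against 49.1, 39.5, 43.3, 51.6 and 50.8 TPM in CR at year 0. For Control animals the values were 15.01, 40.4, 39.8, 36.5 and 36.6 TPM at year 2, against 50.2, 32.6, 40.4, 41.5 and 42.8 TPM at year 0. On the TPM scale animal 001 at year 2 was far below the other 4 of its group. On CPM both 009 (31.01 CPM) and 001 (33.5 CPM) were below the other 3 for MCCC1 (47.4 to 52.8 CPM). For MCCC1 the fitted log2 change was -0.06 ± 0.20 in CR and -0.51 ± 0.20 in Control (edgeR adjusted p = 0.317), and -0.18 in Control without animals 001 and 009.

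HIBCH releases free 3-hydroxyisobutyrate on the valine path, and its Control value was the smallest of the 10. It stood at 48.6, 32.8, 35.98, 44.8 and 29.8 TPM in CR at year 2, against 40.2, 34.7, 36.4, 59.6 and 60.0 TPM in CR at year 0. In Control animals it stood at 20.7, 83.1, 48.1, 67.5 and 51.7 TPM at year 2, against 30.6, 54.9, 60.35, 44.1 and 53.7 TPM at year 0. The groups overlapped in both diets. The fitted log2 change was -0.14 ± 0.20 in CR and -0.09 ± 0.20 in Control (edgeR adjusted p = 0.838), and -0.12 in Control without animals 001 and 009. In Control its sign turned on the log2 TPM scale.

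ALDH6A1, which converts methylmalonate semialdehyde to propionyl-CoA, had the widest range. It stood at 189, 238, 168, 274 and 122 TPM in CR at year 2, against 238, 310.2, 326, 263 and 256 TPM in CR at year 0. Control animals had 27.9, 264, 219, 36.55 and 117 TPM at year 2, against 230.1, 147, 206, 269 and 229.7 TPM at year 0. The extremes of Control were again animals 001 and 009 at year 2, while 005 and 006 were above their year 0 value on TPM and 005 alone on CPM. For ALDH6A1 the fitted log2 change was -0.42 ± 0.45 in CR and -1.28 ± 0.50 in Control (edgeR adjusted p = 0.318), and -0.21 in Control without animals 001 and 009. ALDH6A1 was the only one of the 10 whose estimated counts held fractions of reads, in all 20 libraries.

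The change over 2 years in CR asked whether restriction moved these genes against each animal's own baseline. It called 0 of the 10 genes by edgeR and by DESeq2, with 0 at an unadjusted p under 0.05. Over all 13730 genes edgeR called 0 (percent called 0), DESeq2 called 0.131%, and 2.89% had an unadjusted p under 0.05. The edgeR adjusted p of the 10 was 0.999 throughout. Their median log2 change was -0.04, against 0.0012 over all genes tested, and 49.8% of all genes were lower at year 2. That fit takes its spread from both diets. The CR libraries fitted alone by edgeR called 0 of the 10 and 0 of all genes. In that fit the adjusted p of the 10 ran from 0.49 to 0.978. ALDH6A1 had the smallest, and 1 of the 10 had an unadjusted p under 0.05. By limma on log2(TPM + 1), 1 of the 10 was higher and 9 were lower, with BCKDHA, BCKDHB and IVD on the other side of 0. The median was -0.15 on that scale, against -0.08 over all genes. Leaving out animal 011 took PPM1K to -0.46, and leaving out 004 took it to 0.10.

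The change over 2 years in Control measured the same interval without restriction. It called 0 of the 10 by edgeR (percent called over all genes 0) and 2 by DESeq2 (DBT and PPM1K), which called 1.53% of all genes, with 6 at an unadjusted p under 0.05 by edgeR. These 6 were BCKDHB, DBT, DLD, PPM1K, MCCC1 and ALDH6A1, and 14.6% of all genes had such a p. All 10 were lower, where 49.6% of all genes were, and their median log2 change was -0.55, against 0.0046 over all genes. With animals 001 and 009 left out the median of the 10 was -0.22, 9 were lower and 2 had an unadjusted p under 0.05. By limma on log2(TPM + 1), HIBCH was on the other side of 0 and the median of the 10 was -0.41, against 0.12 over all genes. Without animal 009 alone DLD was at -0.27 and ALDH6A1 at -0.70, and without animal 001 alone BCKDK was at -0.04.

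Within animals the differences were uneven. The median log2 CPM change of the 10 genes lay between -0.13 and 0.17 in CR animals. It was -1.27 in Control 009, -0.99 in Control 001, -0.49 in Control 010, -0.23 in Control 006 and -0.08 in Control 005. The pattern depended on the scale. By TPM all 10 were lower in Control 001, 9 in 010, 7 in 009, 6 in 006 and 2 in 005. By CPM those counts were 7, 9, 10, 9 and 6. In CR animals 5 to 10 were lower by TPM and 3 to 7 by CPM. Of all genes, 48.5% to 52.0% were lower by CPM in an animal. On the CPM scale 0 of the 10 were lower in 5 of 5 CR animals, as were 5.67% of all genes. BCKDHB, DBT, PPM1K and MCCC1 were lower in 5 of 5 Control animals on that scale, as were 4.81% of all genes. On the TPM scale PPM1K was lower in 5 of 5 Control animals, DBT and MCCC1 in 4 and BCKDHB in 3. The shares of all genes were taken on CPM only, so the TPM counts cannot be set against such a share. The median of all genes in Control moved to 0.12 on the log2 TPM scale, against 0.0046 with TMM scaling.

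**Figure D3:**
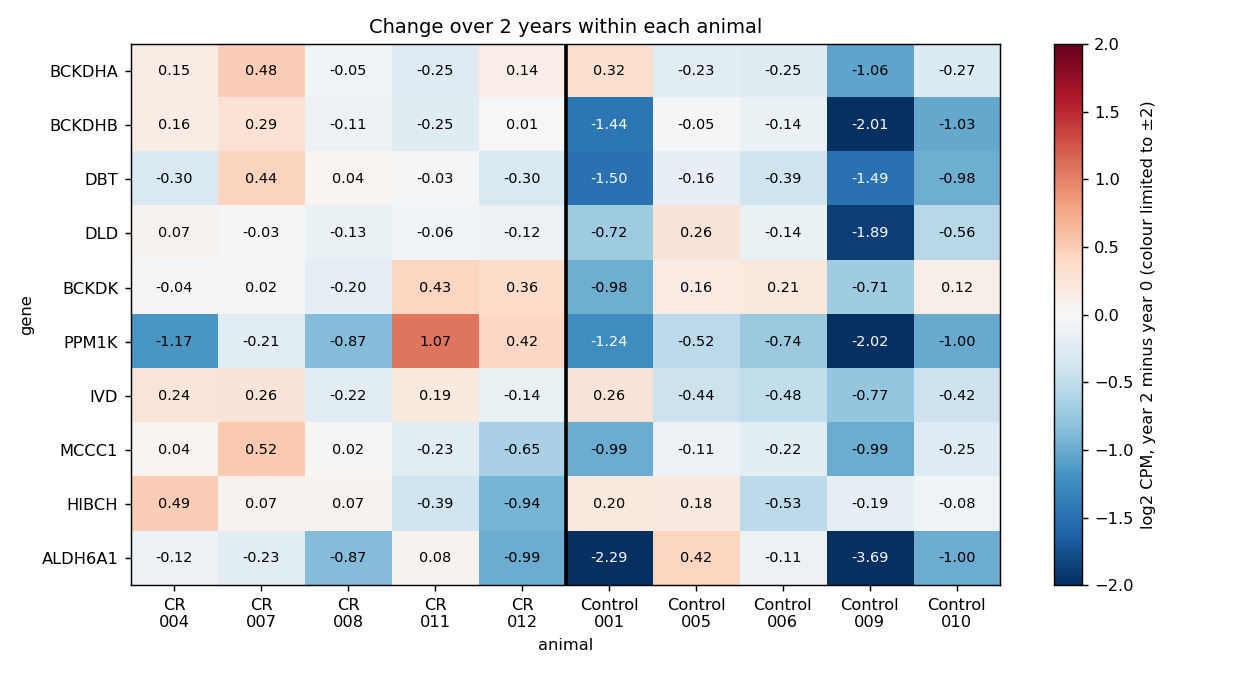
Log2 CPM at year 2 minus year 0 for each gene (rows) in each of the 5 CR and 5 Control animals (columns), printed in the cells, with the colour scale limited to 2 either way. The lowest values are those of ALDH6A1 in Control 009 and 001, at -3.69 and -2.29, and PPM1K is below 0 in every Control column. In Control 001, BCKDHA (0.32), IVD (0.26) and HIBCH (0.20) are above 0.

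**Figure D4:**
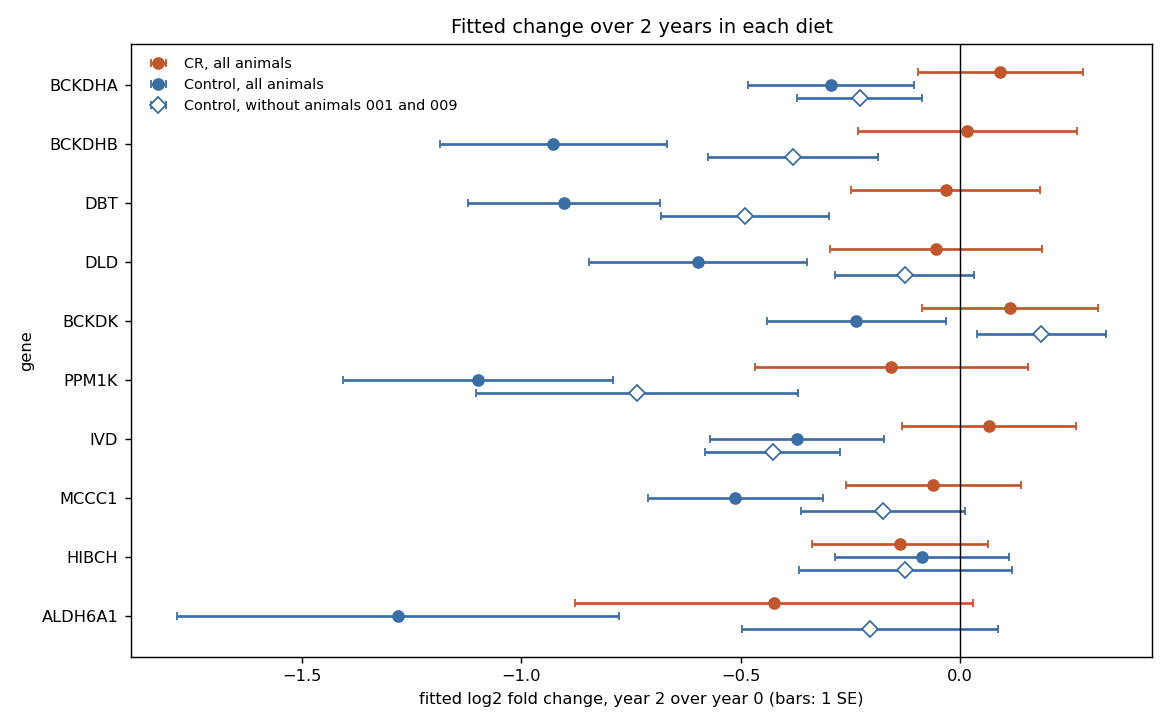
Fitted log2 change from edgeR, year 2 over year 0 (horizontal axis), with 1 SE as bars, in CR, in Control and in Control without animals 001 and 009. Without both animals the Control value of BCKDHB is -0.38 in place of -0.93. Those of BCKDHA, IVD and HIBCH stay within 0.1 of their value with all animals when both are left out together. Leaving out 001 alone took BCKDHA to -0.44 and IVD to -0.52 (not drawn). Leaving out 009 alone took BCKDHA to -0.09 and IVD to -0.25.

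The diet by year interaction asked whether the change in CR differed from that in Control, and it contains both changes above, so it is not a separate line of evidence. It called 0 of the 10 by edgeR (percent called over all genes 0) and 0 by DESeq2 (0.299%), and 9 were above 0 and 1 below, where 49.4% of all genes were below, with a median of 0.50 against 0.0076 over all genes. BCKDHB (0.95 ± 0.36, edgeR adjusted p = 0.681) and DBT (0.87 ± 0.31, edgeR adjusted p = 0.681) had an unadjusted p under 0.05, as had 6.85% of all genes. PPM1K stood at 0.94 ± 0.44 with an unadjusted p of 0.0511. Without animals 001 and 009 the median of the 10 was 0.21, 7 were above 0, and BCKDHB was at 0.40 and DBT at 0.46. By limma on log2(TPM + 1) the median of the 10 was 0.24, with 9 above 0, against -0.20 over all genes. The difference in change between diets was therefore not resolved from the spread of the changes among animals for any of the 10.

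CR and Control were set against each other at year 2, with the same year 2 libraries as above. Of the 10, edgeR called 0 (percent called over all genes 0) and DESeq2 0 (0.0529%), 9 were higher in CR and 1 lower, where 56.3% of all genes were lower, and the median was 0.40, against -0.07 over all genes. PPM1K, at 32.6 ± 14.5 TPM in CR and 16.5 ± 8.64 TPM in Control (SD, n = 5 each), was higher by 1.08 ± 0.39 on the log2 scale. Its unadjusted p was 0.0178 and its edgeR adjusted p 0.659, and 7.03% of all genes had an unadjusted p under 0.05. With animals 001 and 009 left out PPM1K was at 0.67 ± 0.32, and the median of the 10 at 0.10. The CR and Control values overlapped for all 10 genes, and did not for 0.764% of all genes.

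The arms were also compared at year 0, to measure what was there at enrolment. Of the 10, edgeR called 0 (percent called over all genes 0.242) and DESeq2 0 (5.91%), 3 were higher in CR and 7 lower, where 52.3% of all genes were lower, with a median of -0.13. The decarboxylase chains and the core had an unadjusted p under 0.05, as had 18.3% of all genes. BCKDHB was lower in CR by a log2 difference of -0.31 ± 0.11 (edgeR adjusted p = 0.180), DBT of -0.30 ± 0.12 (0.209) and BCKDHA of -0.23 ± 0.10 (0.235). By limma on log2(TPM + 1), 6 were higher and 4 lower, with DLD, BCKDK and IVD on the other side of 0, and the median was 0.05, against 0.12 over all genes. The CR and Control values overlapped for all 10 genes, where 5.00% of all genes did not overlap.

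Other genes of the pathway were taken in 4 lists of 26 genes, all tested, and none was called in any comparison by edgeR. The lists were chosen with earlier results of these libraries known. In CR, the list of transamination, uptake and control (BCAT1, BCAT2, SLC7A5, SLC3A2, SLC25A44 and KLF15) had 3 of 6 genes lower at year 2, with a median of -0.04. Its median in Control was -0.27, with 4 of 6 lower. KLF15, a transcription factor that activates branched-chain amino acid breakdown in mouse, was at -0.88 ± 0.26 in Control, and -0.57 without animals 001 and 009. BCAT1, the cytosolic transaminase, was at -0.94 ± 0.41 in CR and 0.90 ± 0.41 in Control, with an interaction of -1.84 ± 0.58 (unadjusted p = 0.00757, edgeR adjusted p = 0.681), and -2.06 without animals 001 and 009. Its level was low, between 0.04 and 0.54 TPM over the 20 libraries. BCAT2, the mitochondrial transaminase, was at 7.62 TPM in Control 009 at year 2 and between 0.92 and 2.21 TPM in the other 19.

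The leucine branch beyond MCCC1 (MCCC2, AUH, ACAT1 and OXCT1) had 1 of 4 genes lower in CR and 3 of 4 in Control, with medians of 0.09 in CR and -0.32 in Control. Its Control median was 0.13 without animals 001 and 009, with 2 of 4 lower. AUH, the hydratase after the carboxylase, was at -0.44 ± 0.14 in Control (edgeR adjusted p = 0.305), and -0.39 without animals 001 and 009. The valine and isoleucine branches had 7 of 9 genes lower in CR (median -0.07) and 9 of 9 in Control (median -0.38), and 7 of 9 in Control without those animals (median -0.14). ABAT (-0.97 ± 0.30) and HIBADH (-0.85 ± 0.27), the dehydrogenase just before ALDH6A1, had the smallest p there in Control, and stood at -0.42 and -0.26 without those animals. The steps from propionyl-CoA to succinyl-CoA had 3 of 7 lower in CR (median 0.07) and 7 of 7 in Control (median -0.49), and 6 of 7 in Control without those animals (median -0.19). MUT, the B12-dependent mutase, was at -0.88 ± 0.25 in Control (edgeR adjusted p = 0.297) and -0.46 without those animals. It stood at 55.7 TPM in animal 001 and 65.6 TPM in animal 009 at year 2. DESeq2 called MUT in Control (adjusted p = 0.0413).

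Related mitochondrial genes were also mostly lower in Control at year 2. The partners of DLD in its other complexes had 5 of 9 genes lower in CR (median -0.07) and 8 of 9 in Control (median -0.25), with GLDC of the glycine complex at -1.35 ± 0.38 in Control. GLDC was at -1.59 without animals 001 and 009, and DESeq2 called it (adjusted p = 0.0213). Kinases and phosphatases of pyruvate dehydrogenase had 5 of 7 lower in CR (median -0.06) and 6 of 7 in Control (median -0.48). General mitochondrial genes had 5 of 12 lower in CR (median 0.03) and 11 of 12 in Control (median -0.30). In the fit that left out animals 001 and 009 the Control medians of these lists were -0.01, -0.02 and -0.03, with 5 of 9, 4 of 7 and 7 of 12 lower, while those of the pathway lists ran from -0.26 to 0.13. By limma on log2(TPM + 1) the Control medians kept their sign, whereas in CR those of the leucine branch, the propionyl-CoA steps and the general mitochondrial genes were below 0. A difference between the 10 genes and these lists was not tested.

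**Figure D5:**
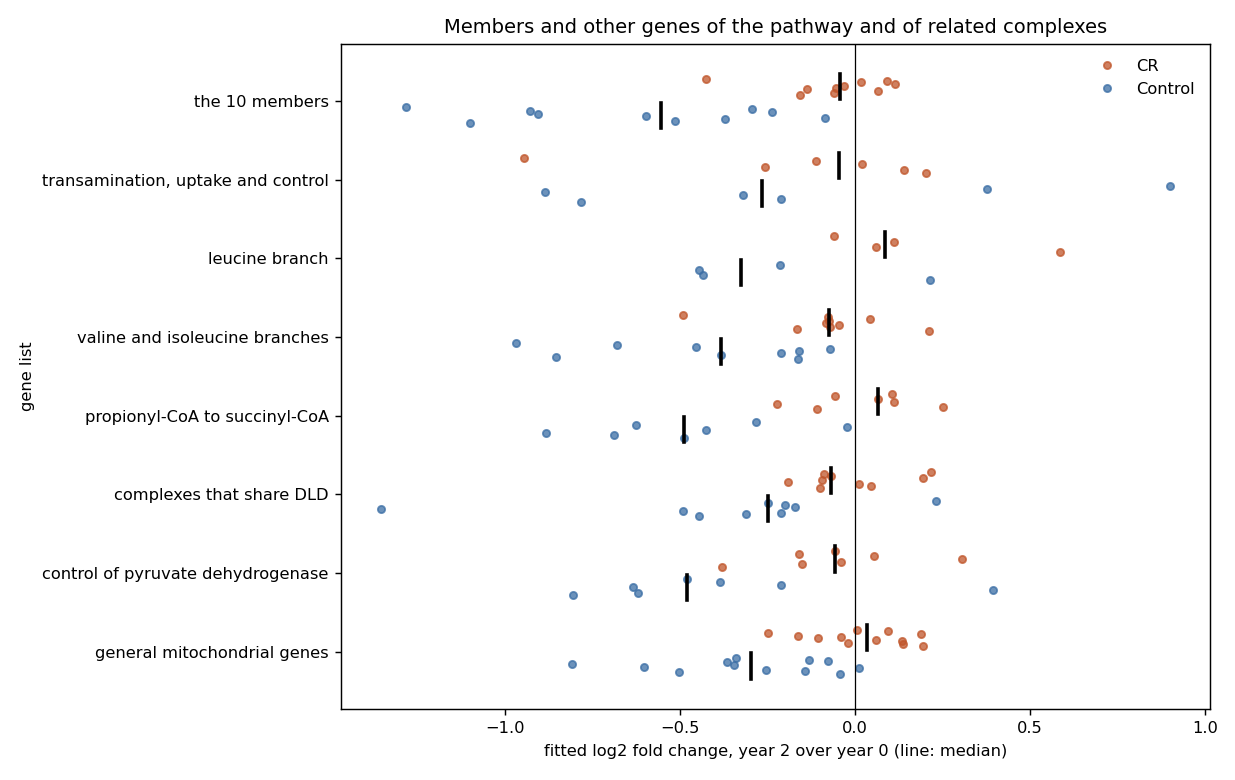
Fitted log2 change, year 2 over year 0 (horizontal axis), of single genes (points) in the 10 genes and in 7 lists of related genes, in CR (upper row of each list) and Control (lower row), with a line at the median. In CR the 8 medians lie between -0.07 and 0.09, and in Control all 8 are below 0, from -0.55 for the 10 genes to -0.25 for the partners of DLD.

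Markers of liver cell types differed along with these values, and their part in them was not tested. Hepatocyte markers were higher at year 2 in CR in 9 of 10 genes (median 0.10) and lower in Control in 9 of 10 (median -0.45), with 0 called. By limma on log2(TPM + 1) 4 of 10 were higher in CR, and without animals 001 and 009 the Control median was -0.41. Their summed level ran from 155880 to 181040 TPM in CR at year 2, from 135770 to 184880 in CR at year 0, and in Control from 74462 to 157680 at year 2 and from 136710 to 162370 at year 0. Macrophage markers were lower in CR in 10 of 10 genes (median -0.59) and higher in Control in 10 of 10 (median 0.43, and 0.70 without animals 001 and 009), with 0 called by edgeR. Their summed level ran from 469 to 1505 TPM in CR at year 2, from 1314 to 1750.2 in CR at year 0, and in Control from 853 to 2093 at year 2 and from 686 to 1244 at year 0. At year 0 they were higher in CR in 10 of 10 genes (median 0.74), with 0 called by edgeR, 1 with relative log expression scaling, 4 without animals 001 and 009 and 5 by limma on log2(TPM + 1). Stellate cell and fibroblast markers had a median of 0.18 in CR and were higher in Control in 6 of 6 genes (median 0.37), and in 3 of 6 Control values without animals 001 and 009 (median 0.09). In CR the medians were -0.35 for T, NK and B cells, -0.08 for neutrophils, -0.44 for endothelial cells, 0.56 for cholangiocytes, 0.41 for red blood cells and -0.15 for fat cells. In Control they were 0.11, 0.58, 0.29, 0.42, -0.18 and 0.11 for the same lists, and 0.28, 1.45, 0.29, 0.07, -0.30 and 0.01 in the fit without both animals. Of the muscle markers 0 of 6 passed the filter on low counts, and of the fat cell markers LEP was at 0 in all libraries. With all animals, the fat cell medians rest on 2 of 5 markers (PLIN1 and FABP4) and the red blood cell medians on 4 of 6.

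The authors' deposited table lists 3071 genes with a log2 fold change and does not name the comparison. Over the 2969 genes shared with the fit above, its fold changes had r = 0.999 with the diet by year interaction, across genes, from the same libraries. It holds 5 of the 10 genes. The authors' deposited table gives DBT a log2 fold change of 0.75 (adjusted p = 0.0339) and BCKDHB 0.82 (adjusted p = 0.0527). It gives DLD 0.42, MCCC1 0.33 and BCKDK 0.23, with adjusted p of 0.326, 0.359 and 0.552. Its filter is not given in the sources used here, so its adjusted values are not comparable with those over 13730 genes.

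How far the 10 genes moved with each other was described by Pearson's r of log2 CPM after taking away the group means, over 20 libraries. Libraries of a group share the mean taken away, and the libraries differ in depth. The 45 pairs had a median r of 0.38, from -0.10 to 0.91, and 18 pairs exceeded 0.5. Without animals 001 and 009 the median was 0.28 and 9 pairs exceeded 0.5. The median r of the 10 genes with all genes tested was -0.0009, and -0.007 without both animals. The share of all gene pairs above 0.5 was not taken. The gene of all those tested whose pattern was most like it was ACAD8, an acyl-CoA dehydrogenase of the valine path, for BCKDHB (r = 0.954, and 0.820 over 16 libraries without both animals). It was NUBPL for MCCC1 (0.933, and 0.865), EPG5 for DBT (0.922, and 0.831), TM9SF1 for DLD (0.977, and 0.793) and SMC1A for ALDH6A1 (0.985, and 0.907). It was DCAF11 for BCKDHA (0.932, and 0.753), TMEM33 for BCKDK (0.910, and 0.755), PTCD2 for PPM1K (0.869, and 0.724), NOS1AP for IVD (0.853, and 0.765) and SYT10 for HIBCH (0.830, and 0.753). These are the highest of many correlations and describe the libraries only.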

How the data were processed

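Paired-end TruSeq libraries were made from total RNA of liver tissue, per the labels' protocols. The authors deposited an expected count per gene and per transcript, estimated from the reads and not normalized, and TPM of the same features. The submitters' processing notes name STAR, RSEM, DESeq2 and, as build, Mmul_8.0.1 (rheMac8), with neither version nor role. A further deposited table holds the mean normalized count signal, log2 fold change, p-value and adjusted p-value per gene, per the file headers. The 40 columns of the deposited FPKM sheets were not used. Gene symbols are those of the deposited tables, and no coordinates are given.

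Counts were rounded, filtered (filterByExpr), scaled by TMM and tested two-sided with edgeR 4.0.16 (quasi-likelihood, robust) in R 4.3.3, with Benjamini-Hochberg adjustment over all genes tested and a threshold of 0.05. Genes tested numbered 13730 in all libraries, 13345 for year 2 and 13244 for year 0. The changes over 2 years and the interaction came from 1 fit with a term per animal, and each year's arms from its 10 libraries. The pairing comes from the animal number in the labels, and the correlation of an animal's deviations ran from -0.253 to 0.162. The fits were tried on simulated counts with known changes, in every comparison but the interaction. Those counts had the same spread for all genes, no animal effect and no library made to stand apart. They do not show how the fits perform on these libraries. Nothing in the labels says more of the biopsies. For the arms of a year, p-values measure the spread between these animals. For the changes and the interaction, p-values and SE measure the spread of the changes within these animals. That spread was estimated for each gene from all 20 libraries of both diets. The CR values thus share the spread of Control, animals 001 and 009 included. Alternatives were relative log expression scaling, no filter, DESeq2 1.42.0, limma 3.58.1 on log2(TPM + 1) and log2(TPM + 0.1), no animal term, each animal left out, and animals 001 and 009 left out together. A fit of CR libraries alone was added after seeing the data.

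The 10 genes, the 17 lists (123 genes, 120 in the tables) and the alternatives were chosen with earlier results of these data known. All 10 genes are named in each comparison, and of the lists mainly the genes of smallest p in Control or in the interaction. For likeness, of the 3 genes with the highest r, the first is named.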

Additional observations from a re-analysis of the deposited data

Results flagged for a closer look

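Of 40 groups of 5 libraries (10 genes in 4 groups), 4 held a library far from the other 4 on the TPM scale, with a gap over the group's range above 0.71. Chance flags about 1 in 20 groups. BCKDHB was 46.2 TPM in CR 007 at year 2, against 39.1 to 41.0 TPM in the other 4. BCKDK was 27.5 TPM in CR 004 at year 0, against 18.0 to 20.4 TPM, and 33.9 TPM in Control 001 at year 0, against 16.2 to 17.9 TPM. MCCC1 was 15.01 TPM in Control 001 at year 2, against 36.5 to 40.4 TPM.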

How the results depend on the processing

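Among the 10 genes, the direction was kept in 165 of 180 alternative values in CR, 166 of 170 in Control, 165 of 170 in the interaction, 168 of 170 between arms at year 2 and 159 of 170 at year 0. An adjusted p under 0.05 appeared in 2 of them, DBT and PPM1K in Control by DESeq2. The fit without the replicate block changed no call, with an adjusted p of at least 0.0955 in Control and 0.216 at year 2. The cause of the changes below was not tested.

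DESeq2 called 18 genes in CR, 210 in Control, 41 in the interaction, 7 at year 2 and 780 at year 0, and 2 of the 10 genes in Control. Without animals 001 and 009 edgeR called 1 in CR, 1 in Control, 1 in the interaction, 2 at year 2 and 228 at year 0. At year 0 edgeR called 13 with no filter and 0 in a fit of all 20 libraries, and limma called 384 on log2(TPM + 1) and 356 on log2(TPM + 0.1). In CR limma on log2(TPM + 0.1) called 1. Leaving out 1 animal at a time gave 0 to 1 calls in CR, 0 to 3 in Control, 0 to 1 in the interaction and 3 to 340 at year 0, the last without animal 001, with 93 without 004.

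On the log2(TPM + 1) and log2(TPM + 0.1) scales the CR change turned to -0.0179 and -0.0182 for BCKDHA, -0.0912 and -0.0932 for BCKDHB, and -0.0442 and -0.0445 for IVD. The Control change of HIBCH turned to 0.0543 and 0.0527. The year 0 difference turned to 0.0279 and 0.0284 for DLD, 0.0696 and 0.0743 for BCKDK, and 0.101 and 0.102 for IVD. Without animals 001 and 009 BCKDK turned to 0.186 in Control, -0.0758 in the interaction and 0.0821 at year 0, ALDH6A1 to -0.224 in the interaction and DLD to -0.0329 at year 2.

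With 1 animal left out, the CR change ran from -0.000371 to 0.179 for BCKDHA, -0.0451 to 0.0834 for BCKDHB, -0.145 to 0.0400 for DBT, -0.461 to 0.102 for PPM1K, -0.201 to 0.0903 for MCCC1 and -0.294 to 0.0660 for HIBCH. HIBCH ran from -0.147 to 0.0334 in Control and from -0.207 to 0.140 in the interaction. BCKDHA ran from -0.0621 to 0.242 at year 2, and at year 0 BCKDK ran from -0.236 to 0.0947 and MCCC1 from -0.0268 to 0.0814. No test of transcript usage was run, since none of the 10 genes kept more than 1 transcript. The shallowest library was among those that stood apart, and the smallest difference that could be detected was not measured.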
